A study of Mus musculus with 32 samples.

Results

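The proximal ends of the mandible and the maxilla were compared in Alk5 mutant mouse embryos at embryonic day 13.5, mandible minus maxilla, over 13705 genes. The 8 arrays were chosen by their titles, 4 of mutant proximal mandible and 4 of mutant proximal maxilla, out of 32 in the series. The remaining 24 arrays covered the distal ends of both mutant jaws and both ends of both jaws of control littermates, again 4 per group. Alk5, gene symbol Tgfbr1, encodes the type I receptor through which TGF-beta ligands signal. Mutants came from matings of Wnt1-Cre;Alk5 fl/+ with Alk5 fl/fl mice of the strain label C57B6 and were recognised by a cleft palate together with a defect of the skull vault. Wnt1-Cre is active in the neural crest, so bone, cartilage, tendon and connective tissue precursors of the face descend from targeted cells, while muscle, endothelium, epithelium and blood cells keep the gene. The labels give neither the genotype of each control embryo nor whether arrays of 1 group came from separate embryos. The p-values therefore measure the spread between arrays within groups, pooled over all 8 groups of the 32 arrays, and this spread may be technical.

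Upper and lower jaw both form from the first pharyngeal arch and the tissue around the mouth. Endothelin-1 from the mandibular arch acts on the crest cells beneath it and switches on Dlx5 and Dlx6, which in turn support Dlx3, Dlx4, Hand2 and Gsc. These homeobox and bHLH genes give crest cells a lower jaw character, while the maxilla keeps Dlx1 and Dlx2 and lies next to the nasal region and the eye. A proximal dissection of either jaw can also take in tissue near its hinge, such as the second arch, the trigeminal nerve, the muscle masses of mastication and, in the maxilla, nasal and orbital tissue.

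The jaw labels were checked against marker genes. Hand2, Dlx3, Dlx5 and Dlx6 were higher on all 4 mandible arrays than on any maxilla array, as described below, and Hand1, a partner of Hand2 at the tip of the mandible, differed by 0.21 ± 0.21 (SE, log2) without passing the test. The upper jaw markers Pou3f3, Pantr1 and Irx5 did not separate the jaws. Pou3f3, for example, had log2 levels of 11.73, 11.31, 11.71 and 11.13 on the mandible arrays, against 12.18, 10.22, 10.75 and 11.43 on the maxilla arrays. The proximal maxilla was thus marked by the low level of lower jaw genes and by Alx1 and Pax3 rather than by these 3 markers.

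The maxilla arrays were less alike than the mandible arrays. Correlations over all genes were 0.983 to 0.995 within the mandible, 0.960 to 0.987 within the maxilla and 0.955 to 0.978 between the jaws. Over the 2000 most variable genes, each centred on its mean over the 32 arrays, the array labelled proximal maxilla 4 correlated at -0.19 to 0.19 with the other 3 of its group and at 0.79, 0.64 and 0.56 with distal maxilla arrays 3, 2 and 1. Distal maxilla 4 correlated at 0.81 and 0.78 with proximal maxilla 2 and 3. The 2 maxilla arrays of mutant number 4 thus went against their end labels, and the labels were kept as given. Proximal maxilla 1 also stood apart, at -0.21, -0.16 and 0.19 with arrays 2, 3 and 4. Counts below are therefore also given without both maxilla arrays of number 4, an alternative added after the data were seen. The Cre spike-in control read 13.77 and 13.94 on the arrays of number 1 and 12.65 to 13.10 on the other 6, and number 1 held 1 array of each jaw. Tgfbr1 itself read 12.97, 12.81, 12.86 and 12.90 in mandible and 12.88, 12.91, 12.80 and 12.89 in maxilla, a difference of 0.01 ± 0.07. The jaw comparison does not check the deletion, since both groups carry it.

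Of the 13705 genes, 420 passed the test, which is 3.06% (limma, Benjamini-Hochberg adjusted p below 0.05). In mandible 172 were higher (1.26%) and 248 were lower (1.81%). Counts of called list members below are to be read against these shares. Values are log2, so a difference of 1 is a 2-fold change, and 223 of the 420 reached it, 85 higher and 138 lower in mandible. The 4 mandible and 4 maxilla arrays did not overlap for 374 of the 420 genes, against 8.08% of all genes tested (3.62% higher and 4.47% lower in mandible). The median difference over all genes was 0.009. In dissected tissue, fewer cells of a type and less RNA per cell cannot be told apart. Without both maxilla arrays of number 4, 316 genes passed, of which 278 were among the 420. The count ranged from 260 to 516 with any 1 of the 8 arrays left out, lowest without maxilla 3 and next lowest, at 278, without maxilla 4. With the 8 arrays fitted alone it was 225, and 203 when these 8 were fitted with the array number as a block. In the fit of all 32 arrays it was 563 with the array number as a block and 595 with number 1 as a covariate.

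**Figure D1:**
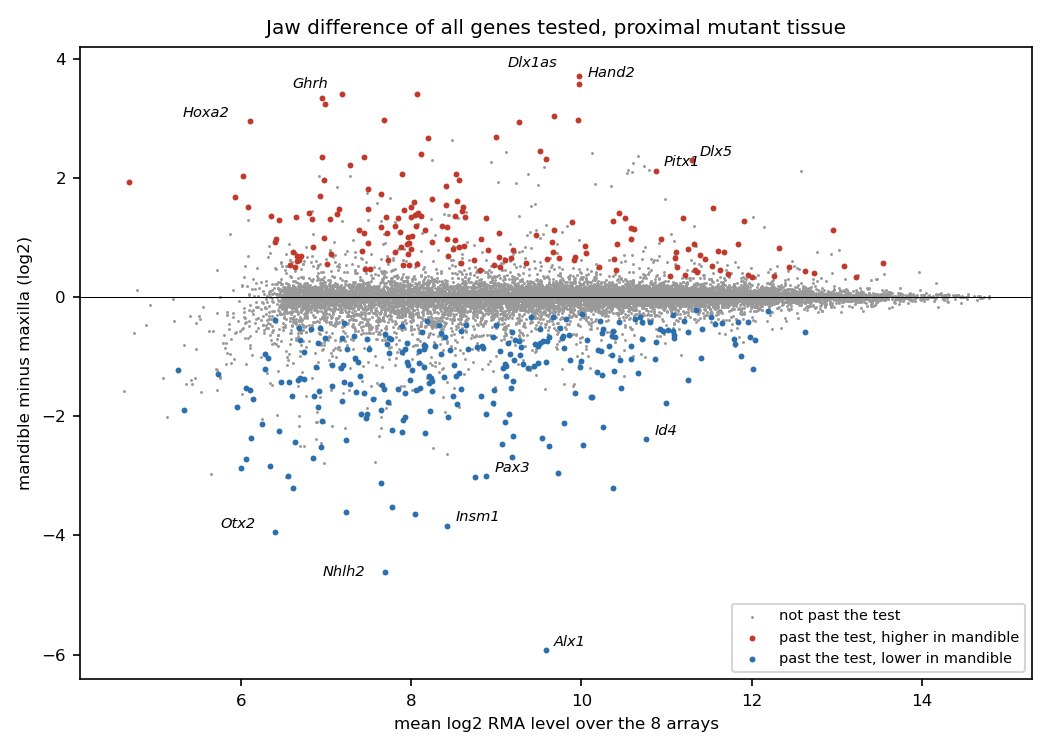
Each point is 1 of 13705 genes, with its mean log2 RMA level over the 8 arrays on the horizontal axis and its mandible minus maxilla log2 difference on the vertical axis. Genes past the test are coloured, 172 higher in mandible and 248 lower, and Alx1 at -5.93 and Dlx1as at 3.71 mark the ends.

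Lower jaw identity genes were higher in mandible. Of 14 listed genes 12 were tested, and 7 passed, all higher in mandible: Hand2, Dlx3, Dlx4, Dlx5, Dlx6, the Dlx6os1 transcript and Gsc. None of the 12 was called lower, and the median difference was 1.81. The same 7 genes passed without both maxilla arrays of number 4, with a median of 1.91.

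Hand2 encodes a bHLH factor of the lower jaw crest that acts below endothelin-1. Its log2 level was 11.56, 12.04, 11.52 and 11.94 on the mandible arrays and 7.77, 8.03, 8.03 and 8.92 on the maxilla arrays. Every mandible array lay above every maxilla array, and maxilla 4 was the highest of its group. The difference was 3.58 ± 0.53 (SE), adjusted p = 0.000103 in limma, and 2 further Hand2 probe sets differed by 0.85 and 1.34 in the same direction.

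Dlx5 and Dlx6, the homeobox pair that reads the endothelin signal, stood apart in the same way. Dlx6 had 11.33, 10.21, 10.74 and 10.68 in mandible and 8.38, 6.94, 7.07 and 8.78 in maxilla, a difference of 2.94 ± 0.46 (adjusted p = 0.000211, limma). Dlx5 had 12.46, 12.29, 12.59 and 12.42 in mandible and 10.10, 9.51, 9.77 and 11.20 in maxilla, a difference of 2.30 ± 0.32 (adjusted p = 6.35e-05). Dlx5 in maxilla was low but not near the bottom of the scale, whereas the mandible arrays agreed to within 0.30.

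Dlx6os1, a non-coding RNA of the Dlx5 and Dlx6 locus, was 3.03 ± 0.56 higher in mandible. Dlx3 and Dlx4 followed the same pattern. Dlx3, which acts in crest, skin and teeth, had 11.25, 10.59, 10.77 and 10.35 in mandible and 8.91, 7.19, 7.71 and 9.34 in maxilla (2.45 ± 0.47, adjusted p = 0.00232, limma). Dlx4 had 9.39, 8.78, 9.53 and 8.97 in mandible and 6.11, 5.85, 6.13 and 6.68 in maxilla (2.98 ± 0.27, adjusted p = 5.03e-08). All 4 maxilla arrays of Dlx4 lay under the level used to filter dim probe sets (6.66 to 6.86), and Dlx4os, transcribed from the same locus, did the same, at 9.78, 9.73, 9.95 and 9.64 in mandible and 5.94 to 6.68 in maxilla. Differences of genes whose arrays of one jaw were all under the filter level rest on the dim end of the scale and may understate the change. Maxilla 4 was the highest maxilla array for Hand2, Dlx3, Dlx4, Dlx5, Dlx6 and Dlx6os1.

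Dlx1as, the antisense transcript of Dlx1, had the largest fitted difference on the mandible side, a rank that is open to the genes whose maxilla arrays were under the filter level. It had 11.84, 11.67, 11.79 and 11.99 in mandible and 8.05, 8.12, 9.15 and 7.12 in maxilla, a difference of 3.71 ± 0.93 (adjusted p = 0.0221, limma). The groups lay far apart, but the call was lost without any 1 of 5 arrays, with an adjusted p of at most 0.0876, reached without maxilla 4. Dlx1 and Dlx2, which are active in both jaws, differed by 0.55 ± 0.57 and 0.59 ± 0.30 and did not pass. The homeobox gene Gsc, which is needed for jaw and ear structures, was 1.33 ± 0.26 higher in mandible, with every mandible array at 11.07 or above and every maxilla array at 10.42 or below.

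The upstream genes of the list, and the list member Rgs5, did not follow. Edn1, the ligand itself, had 7.39, 7.71, 7.27 and 7.40 in mandible and 7.52, 8.20, 8.09 and 7.54 in maxilla (-0.39 ± 0.18, adjusted p = 0.383, limma). Ece1, which cleaves its precursor, differed by -0.22 ± 0.15, Mef2c by -0.31 ± 0.25 and Rgs5 by -0.87 ± 0.57, and none of these passed. An exact permutation test over the 70 splits of the 8 arrays gave p = 0.0286, the smallest it can give, for Hand2, Dlx3, Dlx4, Dlx5, Dlx6, Dlx6os1, Gsc and Ece1, and 0.143 for Edn1.

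**Figure D2:**
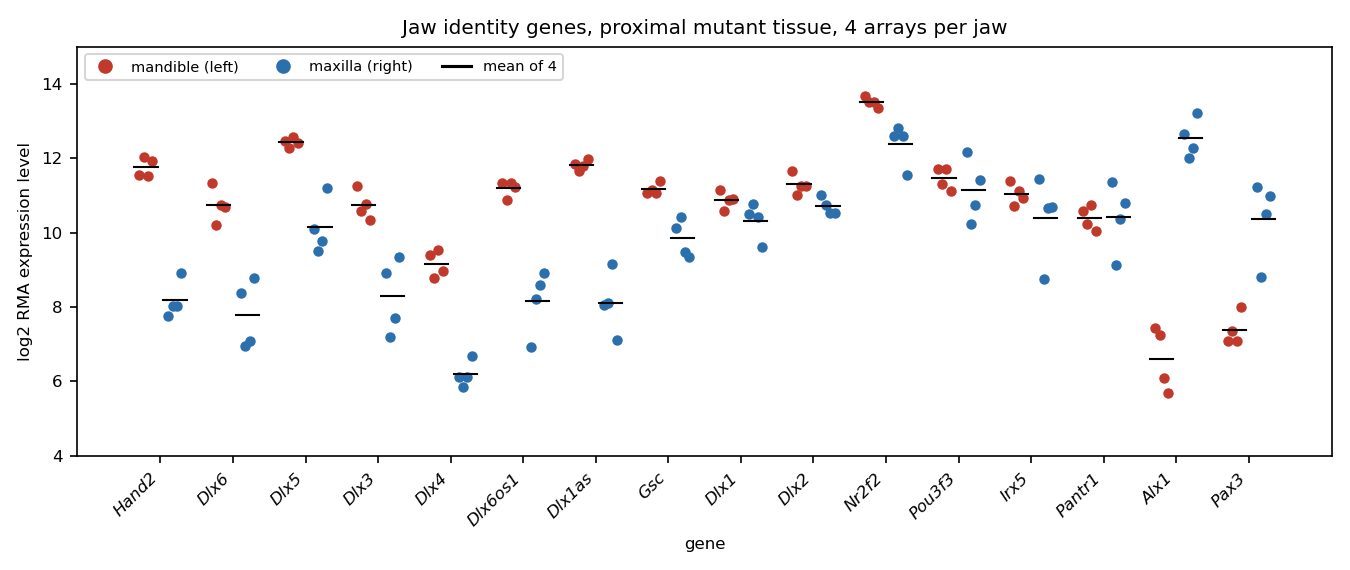
Log2 RMA levels of 16 jaw identity genes on each array, mandible left and maxilla right within each gene, with a bar at the mean of 4. Hand2, the Dlx genes from Dlx6 to Dlx1as and Gsc separate the jaws with mandible above, Alx1 and Pax3 separate them with maxilla above, and Pou3f3, Irx5 and Pantr1 overlap.

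Start-site windows are shown for 3 of the leading mandible genes, the highest called among named transcription factor loci with such a window. Marked in them is TAATT, the core that homeodomain proteins bind. The windows run from 250 bases before to 50 after the annotated start, are from RefSeq on build GRCm38.p6, and are written in the sense of the gene. Capitals mark TAATT and its reverse complement AATTA, which overlap in TAATTA. Hand2 lies at chr8:57320733-57321032 on the plus strand, Dlx6os1 at chr6:6869484-6869783 and chr6:6861634-6861933 on the minus strand, and Gbx2 at chr1:89931127-89931426 on the minus strand.
Hand2: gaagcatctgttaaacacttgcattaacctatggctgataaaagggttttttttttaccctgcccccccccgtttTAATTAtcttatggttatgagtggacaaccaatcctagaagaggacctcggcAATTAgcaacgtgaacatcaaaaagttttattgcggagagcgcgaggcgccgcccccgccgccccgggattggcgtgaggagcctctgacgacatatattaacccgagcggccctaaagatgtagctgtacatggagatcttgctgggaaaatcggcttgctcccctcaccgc
Dlx6os1, first start: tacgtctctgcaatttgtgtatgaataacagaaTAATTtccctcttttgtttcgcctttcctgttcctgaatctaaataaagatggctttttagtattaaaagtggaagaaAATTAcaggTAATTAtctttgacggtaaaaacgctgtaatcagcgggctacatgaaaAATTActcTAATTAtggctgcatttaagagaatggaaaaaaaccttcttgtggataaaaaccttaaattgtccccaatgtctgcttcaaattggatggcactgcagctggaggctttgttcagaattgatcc
Dlx6os1, second start: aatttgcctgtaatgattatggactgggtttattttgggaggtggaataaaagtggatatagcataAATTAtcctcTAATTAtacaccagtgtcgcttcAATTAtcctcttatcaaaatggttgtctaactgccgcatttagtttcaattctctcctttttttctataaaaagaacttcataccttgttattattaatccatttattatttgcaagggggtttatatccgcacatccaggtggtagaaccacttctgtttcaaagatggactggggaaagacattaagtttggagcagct
Gbx2: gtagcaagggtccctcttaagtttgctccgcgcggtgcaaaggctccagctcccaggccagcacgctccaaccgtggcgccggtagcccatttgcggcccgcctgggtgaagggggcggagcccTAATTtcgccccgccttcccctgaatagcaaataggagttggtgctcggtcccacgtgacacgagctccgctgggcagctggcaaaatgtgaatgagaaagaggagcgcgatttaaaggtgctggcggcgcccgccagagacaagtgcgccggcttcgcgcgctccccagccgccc
Counting both strands, the letters matched 3 times in the Hand2 window, 7 and 4 times in the Dlx6os1 windows and once in the Gbx2 window. Of all 32851 such windows 27.0% hold a match. The 20 genes with the largest called mandible excess and no overlap between the jaws were also looked at. Of these, 13 had such a window and 6 held a match in any of their windows. The 27.0% is a share of windows, while the 6 of 13 counts genes, and a gene can have several windows. That count is therefore not to be read against the 27.0%. A match describes these letters and is not a binding site.

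Other transcription factor genes led the mandible side beside the Dlx and Hand group. Gbx2, a homeobox gene of the mandibular arch, had 8.51, 8.23, 9.10 and 8.58 in mandible and 6.14, 5.13, 4.76 and 5.44 in maxilla (3.24 ± 0.27, adjusted p = 8.22e-09, limma). The maxilla arrays were all under the filter level, so Gbx2 was measured on the mandible side alone. Pitx1, a homeobox gene needed for hindlimb and mandible, had 11.73 to 12.14 in mandible and 9.39 to 10.21 in maxilla (2.12 ± 0.30). Bnc1, a zinc finger gene, was 2.98 ± 0.34 higher, the nuclear receptor gene Nr5a2 was 2.69 ± 0.35 higher, and Hmx1, a homeobox gene of face and ear, was 2.40 ± 0.50 higher in mandible. The bHLH gene Tcf24 was higher by 2.67 ± 0.54, with all 4 mandible arrays (8.49 to 10.61) above the highest maxilla array (8.42).

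Ghrh, which encodes growth hormone releasing hormone, had the smallest adjusted p among the named genes. Its level was 9.98, 8.40, 8.72 and 8.47 in mandible and 5.71, 5.35, 5.50 and 5.39 in maxilla, where all 4 arrays were under the filter level. The difference was 3.40 ± 0.23 (adjusted p = 3.23e-10, limma). The unannotated transcript 3110099E03Rik behaved alike, with 8.31 to 9.15 in mandible and 5.20 to 5.42 in maxilla. Neither call was lost when any 1 array was left out.

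Alx1, a homeobox gene of the frontonasal and upper jaw crest, had the largest difference of either sign. Its log2 level was 7.44, 7.24, 6.10 and 5.68 in mandible and 12.67, 12.01, 12.29 and 13.21 in maxilla, a difference of -5.93 ± 0.47 (adjusted p = 5.11e-09, limma). No array of one jaw came within 4 log2 units of the other jaw, and a second probe set gave -5.90. Pax3, a paired-box gene of crest and nasal mesenchyme, had 7.09, 7.36, 7.09 and 8.0 in mandible and 11.24, 8.80, 10.50 and 10.99 in maxilla (-3.00 ± 0.52, adjusted p = 0.000706). Maxilla 2 was the lowest of its group for Pax3, yet above every mandible array.

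Alx1 and Pax3 were the 2 of 15 tested upper jaw identity genes called lower in mandible, and the median of the 15 was -0.01. Nr2f2, a nuclear receptor gene, was the 1 called higher in mandible, at 13.35 to 13.69 against 11.55 to 12.81 in maxilla (1.13 ± 0.32, adjusted p = 0.0473, limma). Nr2f2 lost its call with the array number as a block (adjusted p = 0.0838) and without any 1 of 7 of the 8 arrays, with the highest adjusted p without maxilla 4 (0.85, adjusted p = 0.231). Six2, at 11.15 to 11.70 in mandible and 12.20 to 12.22 in maxilla, differed by -0.82 ± 0.23 and narrowly missed the test (adjusted p = 0.0505). Irx3, Irx5, Nr2f1, Foxd1, Emx2, Six4, Alx4, Cyp26a1 and Cyp26b1 did not pass either, with differences between -0.72 and 0.79.

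Among 23 tested transcription factor genes of tooth and palate, Pitx1 was called higher and Tbx22 lower in mandible, against a median of -0.09. Of all genes tested 3.06% were called. Tbx22, a T-box gene of the palate whose human mutation causes cleft palate, had 8.82, 7.68, 8.23 and 8.69 in mandible and 11.11, 10.89, 10.34 and 10.57 in maxilla (-2.37 ± 0.48, adjusted p = 0.00371, limma). The 2 groups lay more than 1.5 log2 units apart. Msx1, which tooth and palate mesenchyme needs, had 11.29 to 12.18 in mandible and 9.20 to 13.49 in maxilla, with the whole of the mandible range inside that of the maxilla. Barx1, Lhx6, Lhx8, Pax9, Osr2 and Meox2 did not pass.

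Genes of neurons were lower in mandible. Of 20 tested neuron markers 8 were called lower in mandible and none higher, with a median of -1.48. The 8 were Tubb3, Stmn2, Stmn3, Elavl3, Elavl4, Neurod1, Scg2 and Chga, and the count stayed at 8 without both maxilla arrays of number 4. Stmn2, a tubulin-binding protein of growing axons, had 9.82, 8.34, 9.92 and 7.03 in mandible and 11.71, 12.09, 12.37 and 11.72 in maxilla (-3.20 ± 0.44, adjusted p = 5.23e-05, limma). Scg2, which encodes a secretory granule protein, had 6.99, 5.80, 6.32 and 5.27 in mandible and 7.73, 10.56, 10.50 and 8.02 in maxilla (-3.11 ± 0.59). Maxilla 2 and 3 were far above maxilla 1 and 4 for Scg2, and likewise for Chga, at 9.60 and 9.64 against 7.29 and 7.35. Neurofilament genes did not follow: Nefl differed by 0.90 ± 0.79 and Nefm by 0.25, and the axon growth gene Gap43 by -0.51 ± 0.24, none past the test.

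Proneural genes were among the largest differences on the maxilla side. Nhlh2, a bHLH gene of differentiating neurons, had 5.16, 4.50, 7.22 and 4.66 in mandible and 8.65, 10.48, 10.70 and 10.14 in maxilla (-4.61 ± 0.78, adjusted p = 0.000579, limma). Insm1, a zinc finger gene of newborn neurons and endocrine cells, had 6.25, 6.32, 7.08 and 6.37 in mandible and 9.49, 10.75, 10.74 and 10.38 in maxilla (-3.83 ± 0.36, adjusted p = 9.82e-08). Mandible 3 was the highest of its group for both, and also for Neurod1, at 7.60 against 5.47 to 5.52 on the other mandible arrays. Neurod1 differed by -3.53 ± 0.64 and Neurog1 by -3.21 ± 0.42, and both encode bHLH factors of sensory neuron precursors.

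Of 16 tested olfactory, eye and forebrain genes 6 were called lower in mandible, namely Otx2, Lhx2, Six3, Sox2, Neurog1 and Dmrt3, none was called higher, and the median was -0.63. Otx2, a homeobox gene of forebrain, eye and nasal epithelium, had 4.18, 4.59, 4.59 and 4.37 in mandible and 8.24, 9.06, 6.68 and 9.51 in maxilla (-3.94 ± 0.62, adjusted p = 0.000287, limma). All mandible arrays of Otx2 were under the filter level, as was maxilla 3. Lhx2, a LIM homeobox gene of eye and olfactory epithelium, had 6.72 to 7.65 in mandible and 9.76 to 10.70 in maxilla (-3.03 ± 0.52). Fezf1, which olfactory neurons need, was lower by -3.61 ± 0.58, Six3os1 by -2.87 ± 0.65 and Sp8 by -2.84 ± 0.66 on the log2 scale. Six3os1 lost its call without maxilla 3 (-2.54, adjusted p = 0.0554, limma). Sp8 missed the test without both maxilla arrays of number 4 (-2.43, adjusted p = 0.0587). The 3 early B-cell factor genes Ebf1, Ebf2 and Ebf3, which are also active in olfactory neurons, differed by 0.10, 0.25 and 0.09.

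A few genes of the diencephalon and pituitary were high on 2 maxilla arrays only, and they were singled out after their values were seen. Six6 had 4.92 to 5.19 in mandible and 5.23, 10.27, 10.75 and 5.91 in maxilla. Otp had 6.51 to 6.88 in mandible and 6.62, 9.85, 11.30 and 6.79 in maxilla, and Cga, the common subunit of pituitary glycoprotein hormones, 6.25 to 6.87 in mandible and 6.93, 10.66, 10.46 and 6.93 in maxilla. In each case maxilla 2 and 3 were high, and none of the 3 genes passed the test (adjusted p = 0.261, 0.533 and 0.143, limma). The mean level of the neuron list was likewise highest on these arrays, at 10.46 and 10.01 against 8.71 and 8.95 on maxilla 1 and 4 and 7.33 to 8.64 in mandible. The part of such tissue in the jaw difference was not tested.

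Muscle genes were higher in mandible. Of 17 tested regulators and fusion genes 8 were called higher and none lower, with a median of 1.55, and of 24 sarcomere genes 3 were called, with a median of 2.05 and all 24 differences above 0. Without both maxilla arrays of number 4 the counts were 5 and 1 and the medians 1.30 and 1.24. Myod1, the myogenic bHLH regulator, had 10.82, 11.12, 10.59 and 10.43 in mandible and 8.96, 9.95, 8.34 and 6.44 in maxilla (2.32 ± 0.61, adjusted p = 0.0309, limma). The jaws did not overlap, but the 4 maxilla arrays spread over more than 3 log2 units and maxilla 4 was the lowest. Without both maxilla arrays of number 4 Myod1 differed by 1.66 (adjusted p = 0.15), and with the array number as a block its adjusted p was 0.0513. The Myod1 call was lost without any 1 of 6 arrays.

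The muscle calls differed in how far they depended on single arrays. Fgfr4, a growth factor receptor of muscle progenitors, had 9.02, 9.12, 8.62 and 8.38 in mandible and 7.35, 8.01, 7.09 and 7.04 in maxilla (1.41 ± 0.25, adjusted p = 0.000864, limma), and it passed without any 1 of the 8 arrays. The acetylcholine receptor subunit genes Chrna1 and Chrng differed by 1.61 ± 0.32 and 1.32 ± 0.26, and Mymk, which encodes a fusion protein of myoblasts, by 1.55 ± 0.34, the last without a call when maxilla 4 was left out (1.31, adjusted p = 0.0513). Tcf21, a bHLH gene of the head muscle anlage and of fibroblasts, had 8.48, 10.31, 6.65 and 7.10 in mandible and 5.51 to 5.96 in maxilla (2.36 ± 0.51). Actc1, the cardiac actin gene that embryonic muscle uses, had 13.80, 13.89, 13.45 and 13.43 in mandible and 12.54, 13.25, 12.03 and 8.27 in maxilla, and did not pass (2.12 ± 1.00, adjusted p = 0.426). Klhl41, Ccdc141, Cdh15, Casq2 and Tnni2, all of muscle, were called higher but missed the test without both maxilla arrays of number 4, with adjusted p between 0.0837 and 0.149 in limma. Ccdc141 also missed it with the array number as a block (adjusted p = 0.0556).

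Hox genes are silent in first arch crest and mark tissue behind it. Of 26 listed 14 were tested, Hoxa2 and Hoxb2 were called higher in mandible, none lower, and the median was 0.41. Hoxa2, which gives the second arch its character, had 10.35, 9.27, 5.57 and 5.13 in mandible and 4.61, 5.09, 4.48 and 4.35 in maxilla (2.95 ± 0.81, adjusted p = 0.0404, limma). It was high on mandible 1 and 2 alone and near the bottom of the scale on the other 6 arrays. Hoxb2 had 9.19, 9.41, 7.54 and 7.46 in mandible and 6.46 to 6.72 in maxilla (1.81 ± 0.38, adjusted p = 0.00528), with mandible 1 and 2 high again. The Hoxa2 call was lost without any 1 of 6 arrays. Without mandible 1 the Hoxa2 difference was 2.02 (adjusted p = 0.224), and without both maxilla arrays of number 4 it was 2.85 (adjusted p = 0.101).

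**Figure D3:**
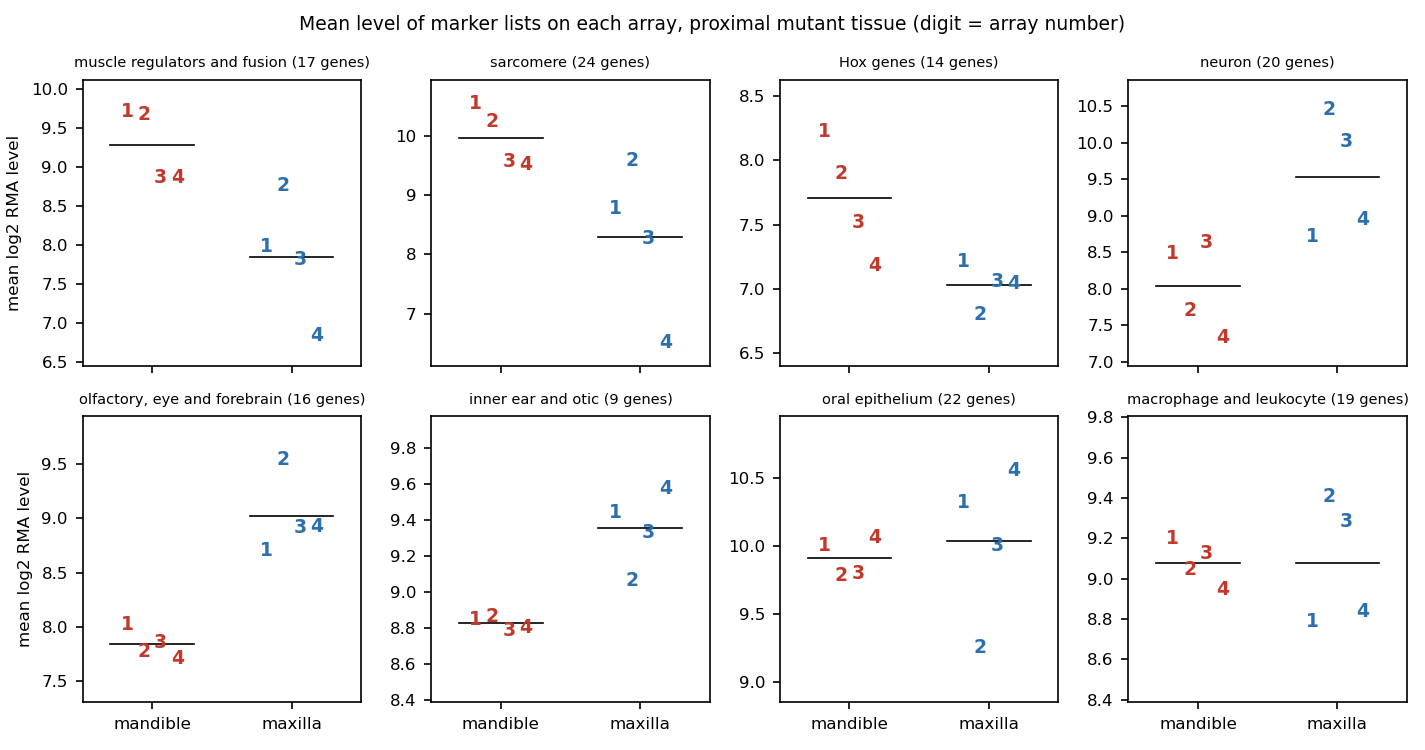
Mean log2 RMA level of 8 marker lists on each array of mutant proximal tissue, mandible left and maxilla right, where each digit is the array number and the bar is the mean of 4. Muscle and sarcomere means are lowest on maxilla 4, Hox means are highest on mandible 1 and 2, and neuron means are highest on maxilla 2 and 3.

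Of 9 tested inner ear and otic genes 3 were called lower in mandible, namely Gata3 (-1.80), Sox2 (-1.53) and Eya1 (-1.05), and Otor was called higher (1.26), with a median of -0.58. Of 22 oral epithelium genes Epcam and Krt18 were called lower, beside 1.81% of all genes tested. Epcam, an epithelial adhesion gene, had 11.28, 11.30, 11.34 and 11.73 in mandible and 12.04, 11.94, 12.15 and 12.66 in maxilla (-0.79 ± 0.20, adjusted p = 0.0219, limma). Epcam and Krt18 missed the test without both maxilla arrays of number 4 (adjusted p = 0.118 and 0.0968, limma), as did Gata3. Gata3 also missed it when only proximal maxilla 4 was left out (-1.56, adjusted p = 0.0698). The calls of Epcam and Otor were lost without any 1 of 5 arrays, that of Krt18 without any 1 of 4 and that of Gata3 without any 1 of 2. Otor missed the test by most without maxilla 2 (0.91, adjusted p = 0.169) and with the array number as a block (adjusted p = 0.0583). No gene of the endothelium (19 tested), macrophage and leukocyte (19), erythroid (9) or proliferation (20) lists passed in limma, and 4, 1, 0 and 1 of them had an unadjusted p below 0.05. The mean level of the macrophage list was 8.95 to 9.20 in mandible and 8.79 to 9.41 in maxilla, so the mandible range lay inside that of the maxilla.

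The signalling lists held 1 to 4 calls each, beside 3.06% called of all genes tested. Of 21 tested TGF-beta ligand, receptor and Smad genes 1 was called, and the median was 0.00. That gene was Inhba, which encodes the activin beta A subunit, at 8.25, 8.56, 8.33 and 8.48 in mandible and 9.68 to 10.14 in maxilla (-1.53 ± 0.21, adjusted p = 5.23e-05, limma). The jaws were separated by more than 1 log2 unit and each was tight. Smad4, the common mediator, differed by 0.02 ± 0.06. Of 20 TGF-beta response genes Tagln (-1.07 ± 0.24) and Cnn1 (-0.92 ± 0.25), both actin-binding proteins of smooth muscle, were called lower in mandible. Without maxilla 3 both missed the test (-0.90 and -0.65, adjusted p = 0.0546 and 0.261, limma), and Cnn1 lost its call without any 1 of 6 arrays. Cnn1 had 6.08 to 6.56 in mandible, all under the filter level, and lost its call with the array number as a block (adjusted p = 0.0644), while the matrix genes Fn1 and Postn differed by -0.04 ± 0.10 and -0.39 ± 0.24.

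Of 20 BMP pathway genes 3 were called higher in mandible and 1 lower, with a median of -0.22. Id4, which encodes an inhibitor of bHLH factors, had 9.52, 9.47, 9.52 and 9.76 in mandible and 11.02, 12.57, 12.47 and 11.77 in maxilla (-2.39 ± 0.25, adjusted p = 6.8e-07, limma). The ligand gene Gdf5, known from joints, had 9.37, 8.59, 8.67 and 8.70 in mandible and 7.73, 7.32, 6.92 and 6.95 in maxilla (1.60 ± 0.21, adjusted p = 2.51e-05). The receptor gene Bmpr1b, which responds to Gdf5, was 1.42 ± 0.32 higher, at 10.97 to 11.28 in mandible and 9.31 to 10.54 in maxilla. Bmper, an extracellular BMP modulator, was 1.14 ± 0.25 higher, and neither the receptor gene Bmpr1a (0.11 ± 0.06) nor the target Id3 (-0.23 ± 0.08) passed.

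Of 30 Wnt pathway genes the ligand Wnt2 was called higher (1.40 ± 0.29) and the secreted protein Dkk3 lower (-0.74 ± 0.19) in mandible. Of 19 Fgf pathway genes the ligand Fgf7 was called higher, at 8.51 to 9.57 in mandible and 6.18 to 7.50 in maxilla (2.07 ± 0.41, adjusted p = 0.00311, limma), beside Fgfr4 of the muscle list. Of 13 Hedgehog genes the receptor Ptch1 (-0.59 ± 0.16) and the factor Gli1 (-0.79 ± 0.19), both readouts of the pathway, were called lower and the co-receptor Cdon higher (0.77 ± 0.20). Gli1 had 8.67 to 9.36 in mandible and 9.37 to 10.12 in maxilla, so the closest arrays nearly touched. Of the Hedgehog targets Foxf1 and Foxf2, forkhead genes, differed by -1.20 and -1.31 without passing. With the array number as a block 4 Hedgehog genes were lower and 1 higher, and the Wnt and Fgf lists each held 1 more call. Of 15 retinoic acid genes the synthesis enzyme Aldh1a3 (-1.91 ± 0.44) and the carrier Rbp4 (-0.69 ± 0.19) were called lower and the homeobox gene Meis1 higher (1.17 ± 0.20). Without both maxilla arrays of number 4 Dkk3, Gli1, Ptch1 and Rbp4 missed the test (adjusted p = 0.129, 0.0854, 0.0893 and 0.110, limma). The Rbp4 call was lost without any 1 of 7 arrays, those of Dkk3, Ptch1 and Cdon without any 1 of 5 and that of Gli1 without any 1 of 3. Cdon missed the test by most without maxilla 2 (0.62, adjusted p = 0.148) and Aldh1a3 without mandible 2 (-1.73, adjusted p = 0.0569).

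None of 20 cartilage genes passed in limma, 2 had an unadjusted p below 0.05, and Col2a1, the main cartilage collagen, had 12.29 to 12.52 in mandible and 11.78 to 13.32 in maxilla. Of 11 tested bone genes Dlx5 was called higher and Tnfrsf11b, the decoy receptor that restrains osteoclasts (-1.70 ± 0.36), and Runx1 (-0.82 ± 0.22) were called lower in mandible, while Col1a1 differed by -0.13 ± 0.25. Of 12 tendon genes Thbs4, a matrix glycoprotein of tendon and muscle attachment, was called higher, at 9.35 to 9.84 in mandible and 6.63 to 8.21 in maxilla (1.97 ± 0.32, adjusted p = 0.000378, limma). Of 30 extracellular matrix genes 1 passed, the microfibril protein Mfap4 at -0.41 ± 0.10, beside 3.06% of all genes tested. Of 24 axon guidance genes Flrt3 (0.88 ± 0.17), Sema3a (0.51 ± 0.11) and Efnb2 (0.50 ± 0.14) were called higher, and Slit2 (-0.69 ± 0.16) and Epha4 (-0.53 ± 0.13) lower. Efnb2 lost its call with the array number as a block (adjusted p = 0.0604, limma). The call of Efnb2 was lost without any 1 of 7 of the 8 arrays, that of Runx1 without any 1 of 6, those of Mfap4 and Epha4 without any 1 of 4 and that of Slit2 without any 1 of 2. The highest adjusted p was reached without mandible 1 for Efnb2 (0.45, adjusted p = 0.168) and Runx1 (-0.72, adjusted p = 0.151), mandible 4 for Mfap4 (-0.37, adjusted p = 0.0848), maxilla 4 for Epha4 (-0.44, adjusted p = 0.121) and mandible 3 for Slit2 (-0.65, adjusted p = 0.0527).

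The mutant jaw difference was then set beside that of control proximal tissue, which shares no array with it. Control tissue had 740 genes past the test (5.4%), 319 higher in mandible (2.33%) and 421 lower (3.07%), and 298 genes passed in both with the same sign, which is 71% of the mutant and 40.3% of the control calls. None passed in both with opposite sign, and 415 of the 420 mutant calls had the same sign in controls, against 68.8% of all genes. Hand2 differed by 3.58 in mutants and 3.47 in controls, Dlx6 by 2.94 and 2.55, Alx1 by -5.93 and -5.30, Pitx1 by 2.12 and 2.56, and Myod1 by 2.32 and 2.76. Dlx3 differed by 2.45 in mutants and 1.31 in controls, where it missed the test (adjusted p = 0.120, limma). Scg2 differed by -3.11 in mutants and -0.80 in controls.

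The genotype dependence of the jaw difference was tested directly, as the mutant minus the control difference. Only Lhfpl3 passed, 1 of 13705 genes (0.0073%), while 298 genes had an unadjusted p below 0.05. Lhfpl3, a gene of the tetraspan LHFP family, had 7.60, 7.20, 7.59 and 6.88 in mutant mandible and 5.87, 6.13, 6.35 and 5.54 in mutant maxilla. Controls had 5.74, 6.11, 5.89 and 5.90 in mandible and 6.43, 5.84, 6.05 and 6.11 in maxilla. The mutant mandible stood above the other 3 groups, all of whose arrays lay under the filter level. Of the 32 arrays those 4 alone were over that level, so Lhfpl3 was among the genes tested only through the group in which it was high, and its call is given as a description. The difference was 1.35 ± 0.17 in mutants and -0.20 in controls, and the test of the change gave 1.54 ± 0.24 (adjusted p = 0.0135, limma). The call was lost without any 1 of 4 arrays, with an adjusted p of 0.0626 without mutant mandible 3, and the maxilla arrays of mutant number 4 and control number 2, which also went against their end labels, bear on it: without those 4 arrays the value was 1.49 (adjusted p = 0.0186). With the filter at the 60th percentile Lhfpl3 was not tested, and the 1 gene past the test was Prrt4 (1.27 ± 0.19, adjusted p = 0.00509, limma), there represented by another probe set than otherwise (-0.09, adjusted p = 1).

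Trpm1 and Ghrh had the next smallest p-values for this contrast and did not pass. Trpm1, a cation channel gene of pigment cells and retina, singled out after its values were seen, differed by 1.49 ± 0.17 in mutants and 0.15 in controls (adjusted p of the change = 0.0605, limma). It had 7.40, 7.91, 8.46 and 7.83 in mutant mandible and 6.26 to 6.66 in mutant maxilla, and 5.94 to 6.68 in control mandible. The mutant maxilla arrays of Trpm1 were all under the filter level. None of its control mandible arrays lay clearly above their own filter levels of 6.68 to 6.70. The differences of Trpm1 and their change therefore rest on the dim end of the scale. Across the alternative fits its jaw difference in mutants was 0.56 to 1.81. The change of Trpm1 was 0.48 to 1.64 and passed in 8 of 29 such fits. Ghrh differed by 3.40 in mutants and 1.76 in controls (adjusted p of the change = 0.122). For Gbx2 the differences were 3.24 and 1.74 and for Dlx3 2.45 and 1.31, and the change did not pass for either. Scg2 had a larger contrast (-2.31), which did not pass.

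**Figure D4:**
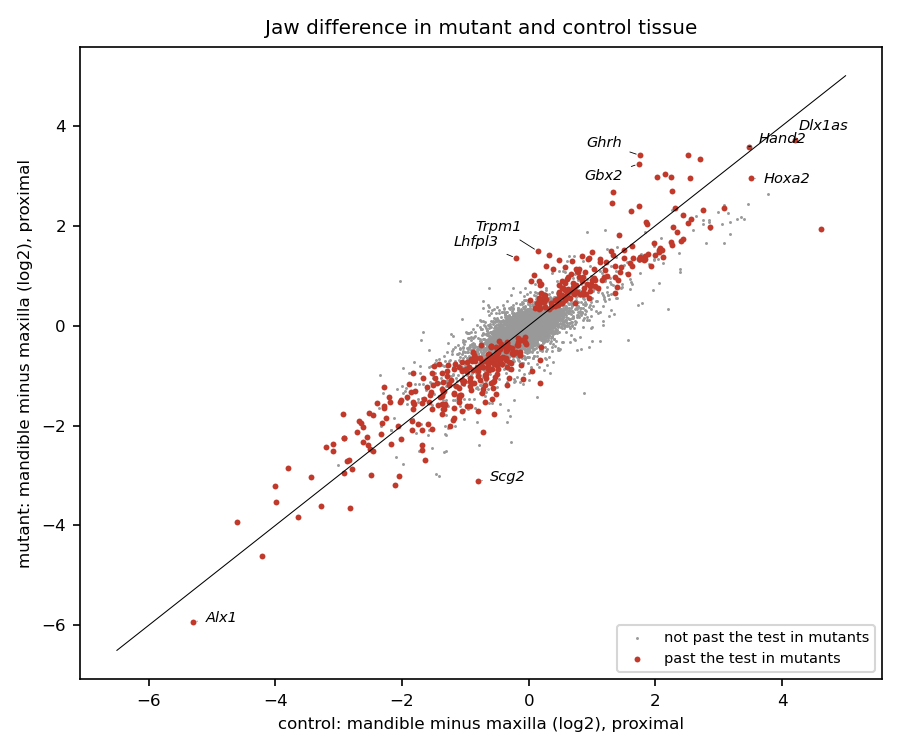
Mandible minus maxilla log2 difference in proximal mutant tissue (vertical) against proximal control tissue (horizontal) for 13705 genes, with the 420 past the test in mutants in red and a line at equal values. Most red points lie along the line, Alx1, Hand2 and Dlx1as near its ends, and Lhfpl3 lies above it at a control difference near 0.

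The dependence on the end was tested as the proximal minus the distal jaw difference in mutants, again without shared arrays. It passed for 238 genes (1.74%), 184 with a higher (1.34%) and 54 with a lower (0.394%) proximal value. Distal mutant tissue had more genes past the test than proximal tissue, 1874 (13.7%), of which 601 were higher in mandible (4.39%) and 1273 lower (9.29%). Of the 420 proximal calls 238 passed at the distal end with the same sign, 56.7% of the proximal and 12.7% of the distal calls, and 16 passed with the opposite sign. Without both maxilla arrays of number 4 the end contrast passed for 182 genes. It passed for 132 to 329 with any 1 of the 16 arrays left out, and for 132 to 157 without proximal mandible 1 or 3, proximal maxilla 1 or 3, or distal mandible 2, 3 or 4.

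Of the 12 lower jaw identity genes only Dlx4 passed the end contrast. The jaw difference of Dlx4 was 2.98 at the proximal end and 0.55 at the distal end (end contrast 2.43 ± 0.38, adjusted p = 0.000549, limma), and that of Dlx4os was 3.41 and -0.01. Ghrh had 8.40 to 9.98 in proximal mandible, against 5.45 to 5.62 in distal mandible, and stayed at 5.29 to 6.24 in maxilla. Its end contrast was 3.45 ± 0.32 (adjusted p = 6.29e-07). 3110099E03Rik (3.37 ± 0.50), Gbx2 (2.68 ± 0.38), Hmx1 (3.01 ± 0.71) and Nr5a2 (2.22 ± 0.49) also passed, and Nr5a2 missed the test without both maxilla arrays of number 4 (1.84, adjusted p = 0.0815). Hand2 had the larger jaw difference at the distal end, 5.72 against 3.58 at the proximal end, but its contrast of -2.14 ± 0.74 did not pass (adjusted p = 0.199).

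Alx1 and Pax3 separated the jaws at the proximal end but not at the distal end. Alx1 had 5.68 to 7.44 in proximal mandible, against 12.12 to 12.51 in distal mandible and 11.94 to 13.56 in distal maxilla, so its end contrast was -5.17 ± 0.67 (adjusted p = 4.88e-05, limma). Pax3 had 7.09 to 8.0 in proximal mandible, against 10.87 to 11.37 in distal mandible and 8.45 to 11.47 in distal maxilla (-4.0 ± 0.73, adjusted p = 0.0023). For both, distal mandible and distal maxilla overlapped and the proximal mandible alone was low. Inhba followed this pattern (-1.54 ± 0.30). Dlg2, a synaptic scaffold gene (-3.08 ± 0.42), and Hpgd, which breaks down prostaglandins (-2.84 ± 0.59), had their lowest mean in proximal mandible and their highest in distal mandible, and Hpgd missed the test without both maxilla arrays of number 4 (adjusted p = 0.0531).

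Of the 20 BMP genes 4 passed the end contrast, 3 higher and 1 lower, and these 4 changed side with the end. The ligand gene Bmp4 differed by -1.0 at the proximal and 0.81 at the distal end. Gdf5 differed by 1.60 at the proximal and -0.76 at the distal end (2.36 ± 0.30, adjusted p = 3.82e-05, limma), Bmper by 1.14 and -1.71 (2.85 ± 0.36) and Bmpr1b by 1.42 and -1.69 (3.11 ± 0.45). For these 3 the proximal mandible was the highest and the distal mandible the lowest of the 4 mutant groups. Id4 was lower in mandible at both ends, at -2.39 and -1.64. The homeobox gene Meis1 of the retinoic acid list differed by 1.17 and -0.73.

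Several of the largest end contrasts came from genes with little jaw difference at the proximal end. Cbln4, a secreted synaptic protein gene, had 6.89 to 8.01 in proximal mandible and 6.72 to 7.93 in proximal maxilla, against 10.13 to 10.69 in distal mandible and 4.88 to 7.45 in distal maxilla (-4.26 ± 0.66, adjusted p = 0.000481, limma). Slitrk1, a neuronal membrane protein gene, had 8.50 to 10.32 in proximal mandible and 8.07 to 9.39 in proximal maxilla, against 5.56 to 6.32 in distal mandible and 8.56 to 9.74 in distal maxilla (3.43 ± 0.55, adjusted p = 0.00067). The forkhead gene Foxa1 (3.29 ± 0.60) and the arginase gene Arg1 (3.90 ± 0.89) were likewise low in distal mandible alone. The neutrophil granule genes S100a8 (4.18 ± 0.99) and S100a9 (4.09 ± 1.02) had their lowest mean there but overlapped with proximal maxilla. Arg1 lost its call without proximal maxilla 3 (3.38, adjusted p = 0.0539, limma), and S100a8 and S100a9 without proximal maxilla 1 (3.70 and 3.53, adjusted p = 0.0715 and 0.0995). Arg1, S100a8 and S100a9 missed the test without both maxilla arrays of number 4 (adjusted p = 0.0734, 0.0746 and 0.103), as did the tendon gene Tnmd (-2.75, adjusted p = 0.0777). Of the 19 macrophage and leukocyte genes 6 passed the end contrast, and the mean level of that list was 8.95 to 9.20 in proximal mandible, 8.79 to 9.41 in proximal maxilla, 7.80 to 7.93 in distal mandible and 8.41 to 9.47 in distal maxilla. The part of such cells in these contrasts was not tested.

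**Figure D5:**
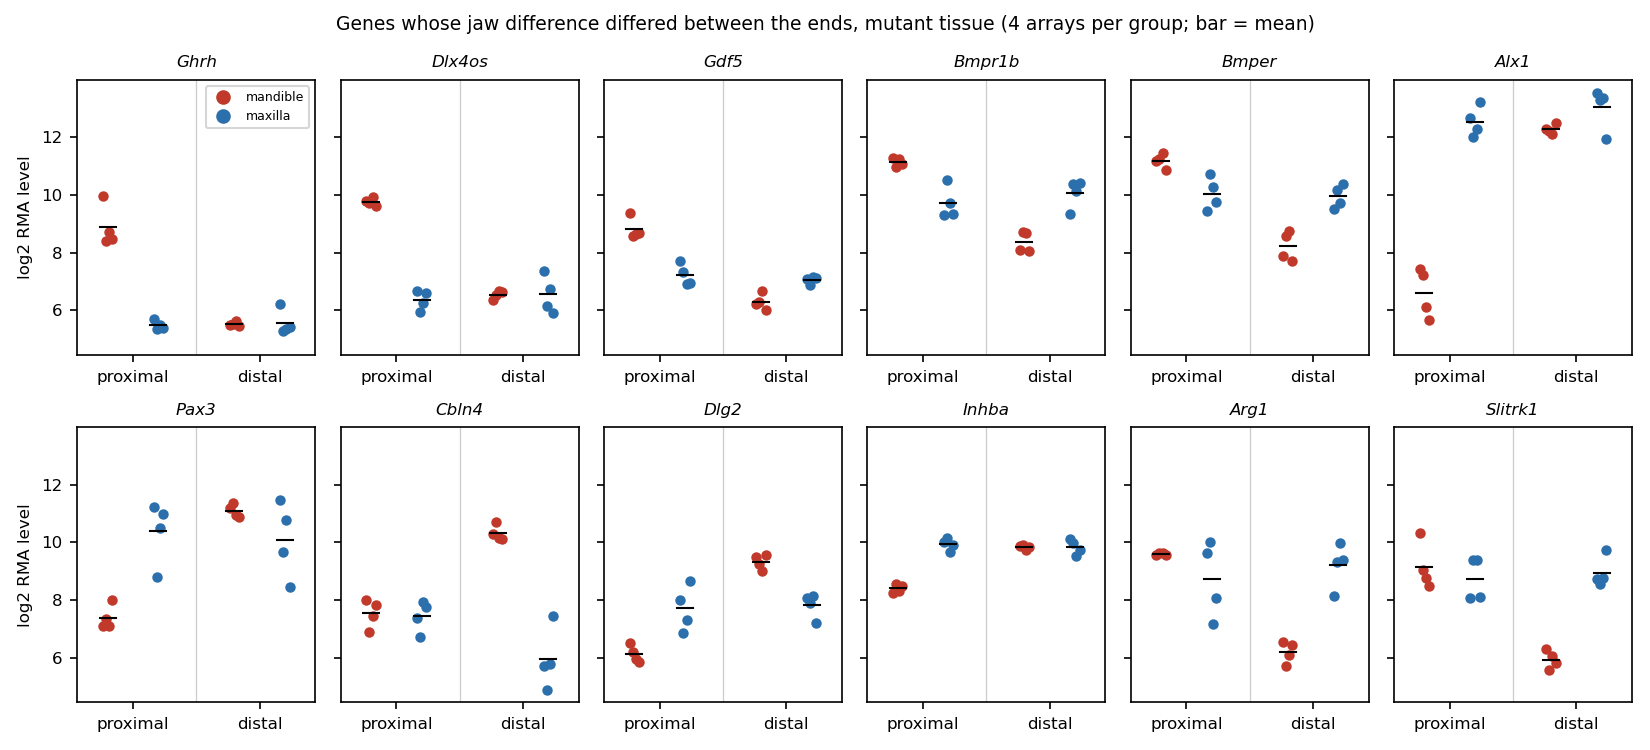
Log2 RMA levels of 12 genes in mutant tissue on each array, proximal left and distal right, mandible left of maxilla within each end, with a bar at the mean of 4. Ghrh and Dlx4os are high in proximal mandible alone, Alx1 is low there alone, and Arg1 and Slitrk1 are low in distal mandible alone.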

How the data were processed

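The 32 arrays measured RNA of mandible and maxilla tissue with 45101 probe sets. The deposited values are log2 RMA levels made by the authors, per the submitters' processing notes; RMA corrects background, normalizes between arrays and summarises probes, and its version is not given in the sources used here. Of the probe sets 34945 had 1 gene symbol, 932 several and 9160 none. Probe sets above the 40th percentile of their array on at least 4 arrays were kept, and the one with the highest mean over 32 arrays stood for its gene, leaving 13705 genes. All 8 groups were fitted together in limma 3.58.1 (R 4.3.3, 24 residual degrees of freedom) without a block, and p-values were adjusted by Benjamini-Hochberg at 0.05. Named genes were the 20 largest called differences in each direction, the 8 largest of each contrast, and up to 6 called and 2 uncalled members of each list. The 20 were taken among called genes whose 4 mandible and 4 maxilla arrays did not overlap. For those genes the lack of overlap was a condition of choice and is not a further result. The members and lists were chosen with earlier results of these data known. The procedure was tested on simulated data.

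Array numbers are shared across groups. After removing group means, mutant proximal mandible and maxilla arrays of the same number correlated at 0.38, 0.31, 0.20 and 0.32. A pairing by number was thus read from the data and not from the labels. The calls come from the fit without this pairing, and the fits with the number as a block are alternatives. The same check gave -0.11 for number 4 in control proximal tissue and 0.07 for number 4 in mutant distal tissue. The number of arrays, 4 per group, limits the precision. Alternatives covered the filter, the normalization, the probe set chosen, the variance model, array weights, the block, the samples fitted and arrays left out.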

Additional observations from a re-analysis of the deposited data

Results flagged for a closer look

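In 9 of 234 groups of 4 arrays (3.8%), 1 array lay far from the other 3 by Dixon's criterion, which chance gives in about 1 of 20 groups. In mutant proximal mandible these were array 3 for Insm1 (7.08) and Neurod1 (7.60), array 1 for Foxd1 (11.25), Gdf5 (9.37) and Efnb2 (12.85), and array 4 for Epcam (11.73). In mutant proximal maxilla they were array 4 for Hpse2 (8.91) and Nr2f2 (11.55) and array 1 for Flrt3 (11.86).

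The jaw difference of Lhfpl3 differed between mutant and control proximal tissue by 1.54 and between the proximal and distal ends of mutants by 1.48. The jaw difference of 34 named genes differed between the ends in limma's test of the contrast. Values above 0, meaning a higher proximal than distal jaw difference, were 3.42 for Dlx4os, 3.45 for Ghrh, 3.37 for 3110099E03Rik, 2.68 for Gbx2, 2.43 for Dlx4, 2.22 for Nr5a2, 3.01 for Hmx1 and 3.29 for Lhx2. They were 4.18 for S100a8, 4.09 for S100a9, 3.90 for Arg1, 3.43 for Slitrk1, 3.29 for Foxa1, 2.19 for Nr2f1, 1.81 for Nr2f2, 1.98 for Foxd1 and 2.33 for Emx2. They were 2.36 for Gdf5, 2.85 for Bmper, 3.11 for Bmpr1b, 1.90 for Meis1, 1.74 for Dmrt3 and 0.98 for Gpnmb. Values below 0 were -5.17 for Alx1, -4.0 for Pax3, -3.12 for Gm2102, -4.26 for Cbln4, -3.11 for Tnmd, -3.08 for Dlg2, -2.84 for Hpgd, -2.63 for 2610027K06Rik, -1.54 for Inhba and -1.52 for Tagln. The proximal and distal maxilla arrays of mutant number 4, which went against their end labels, enter every one of these end contrasts, and their part in them was not tested beyond leaving them out.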

How the results depend on the processing

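Of 98 named genes past the test for the jaw difference, 65 passed whichever single array was left out. Under every alternative in which they were tested 30 passed. Lhfpl3 and Trpm1 are among these 30 but were tested in only 24 of the 25 alternatives. Under array weights 3539 genes passed, 1768 higher and 1771 lower in mandible. The 8 arrays alone gave 225 (88 and 137), and 203 (100 and 103) with the replicate block, where 49.3% of calls were higher in mandible, against 41% of the 420. With the block on the 8 arrays alone Pax3, Stmn2, Neurod1, Neurog1 and Sox2 were among the named genes that lost their call. Alx1, Hand2, Dlx4, Dlx5 and Dlx6 were among those that kept it. With the block in all 32 arrays Tnmd and Eya4 were called (adjusted p = 0.0315 and 0.0486, limma). Of the named genes 6 lost their call there, as given above, and further genes outside the named ones were not followed singly. Further list members gained a call. The Hedgehog list held 4 lower calls against 2 without the block, and the tooth and palate list 3 against 1. Leaving out 1 array or 1 number gave 127 to 628 genes, 48 to 203 higher and 79 to 425 lower, and 51.4% were higher without mandible 4. Without mutant maxilla 1 and 4, chosen after seeing the data, 533 passed, 265 of them among the 420.

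The genotype contrast passed for 3 genes, all higher, after repeated quantile normalization, with the block and with number 1 as a covariate, for 1 other gene, Prrt4, at the 60th percentile filter, for 155 (70 and 85) under array weights, and for 0 to 3 with arrays left out (0 to 3 higher, 0 to 1 lower). The end contrast passed for 2477 (1754 and 723) under array weights, with 88 lower under the block and 86 with number 1 as a covariate, and for 54 to 329 with arrays left out (35 to 275 higher, 19 to 81 lower).

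Without a filter the medians were 1.33 for lower jaw identity and -0.26 for olfactory, eye and forebrain genes. At the 60th percentile they were 2.37 and -1.76, and 1.43 for Hox and -0.23 for pigment cell genes. Averaging probe sets gave -1.19 for the olfactory list, and array weights -0.0068 for tendon. Left-out arrays gave -0.62 to 0.0886 for tooth and palate factors and -0.25 to -0.10 for BMP genes. BMP genes had -0.10 without both maxilla arrays of number 4. Without maxilla 1 and 4 the medians were -0.0291 for BMP, -0.23 for macrophage, -2.33 for neuron, 0.28 for oral epithelium and 0.18 for proliferation genes.

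Signs turned only for genes not called. Pantr1 had 0.23 under array weights, 0.0058 with median centring, 0.12 without both maxilla arrays of number 4, 0.65 without maxilla 1 and 4, and -0.44 to 0.31 with arrays left out. Six4 had 0.041 under array weights and Alx4 0.0178 without maxilla 1 and 4. With arrays left out Hand1 had -0.0585 to 0.37, lowest without number 2, and Emx2 -0.0609 to 0.35, lowest without number 3. The cause of these shifts was not tested.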
